A study of Homo sapiens with 3 samples.

Results

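Safe-targeting control sgRNAs direct Cas9 to places in the human genome where no function is annotated, so that the DNA is cut and no gene is lost. They were recognised here by the word safe in the sgRNA name, in the place where a gene-targeting sgRNA carries an Ensembl gene identifier. This rule uses no count, and it found 6645 sgRNAs among the 200682 seen in any of the 3 libraries (3.31%). All of them share the same stem in their names and differ by a running number from 1 to 6750, of which 105 numbers were seen in none of the 3 libraries.

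The experiment was a pooled knockout screen in K562, a human leukaemia cell line, made to express Cas9 and infected with the Bassik human knockout library at a low dose of virus (0.3 infectious particles for each cell). Puromycin (1 μg/mL) was added 48 h after infection and kept on for 72 h, and the cells of each screen were given interferon-γ (IFN-γ), the cytokine that induces major histocompatibility complex class I (MHC-I), for 24 h before its sort. Cells of the high screen received 1 ng/mL and were sorted on days 18 and 25 for high MHC-I, while cells of the low screen received 25 ng/mL and were sorted on days 7 and 15 for low MHC-I. The libraries analysed were cells of the high screen sorted with an antibody against HLA-B (HLA-B high sorted, called the sort), the unsorted pool of that screen (high-screen control) and, as low-screen control, unsorted cells of the low screen, with 1 library for each. Per the study's methods unsorted cells were cultured alongside the sorted ones, so their counts are those of a parallel pool and not of the same cells ahead of the sort. The labels do not give the day on which either unsorted pool was harvested, and the title of the low-screen control and the name of its deposited data disagree on the antibody of that screen. The antibody does not enter an unsorted pool.

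A knockout screen needs a measure of what happens to a cell that is infected, selected, cut and sorted but loses no gene. Non-targeting sgRNAs, which match no site in the genome, give that measure without the cut, and safe-targeting sgRNAs give it with the cut. DNA breaks activate repair and can slow growth, so a cutting control is the closer reference for a gene-targeting sgRNA. Safe-targeting sgRNAs have no shared target gene, so the counts of different safe-targeting sgRNAs describe many separate cut sites.

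The count data name the library's safe-targeting sgRNAs without their sequences. To show what such a site looks like, the 3 control sgRNAs that the study used against safe sites in its single-gene experiments are printed. The adjoining PAM, the motif that Cas9 needs beside its target, is in capitals. Each of these sgRNAs matched the GRCh37 genome at 1 place.

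Control sgRNA 1: aatcataaggcaatcatcTGG

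Control sgRNA 2: agtaaactagcgcattgTGG

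Control sgRNA 3: aacggatgttaggttctGGG

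The spacer of control sgRNA 1 lies at chr1:206192147-206192164 on the plus strand, in an intron of the long non-coding RNA gene ENSG00000287432 and 31468 bp from the nearest protein-coding gene, AVPR1B. That of control sgRNA 2 lies at chr14:86741813-86741829 on the plus strand, between genes, with the nearest gene of any kind 7758 bp away and the nearest protein-coding gene, FLRT2, 621041 bp away. That of control sgRNA 3 lies at chr6:102665793-102665809 on the plus strand, also between genes, with GRIK2 as the nearest protein-coding gene at 136296 bp. None of the 3 sites falls in an exon. Nothing in the names links these 3 spacers to a row of the counts, so no count is attached to them.

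The libraries held 34266318 matched reads in the sort, 22562241 in the high-screen and 98426251 in the low-screen control, which is a mean of 170.7, 112.4 and 490.5 reads for each sgRNA seen. With 1 library in each group there was no spread between replicates and no test between groups could be made. The 95% intervals given are exact Clopper-Pearson intervals for shares and Newcombe intervals for differences of shares. For a median ratio the interval lies between ranked values, with the ranks set by the binomial distribution. All these intervals treat sgRNAs as the units within these libraries, they cover counting error only, and the reads are PCR products without molecular identifiers. An sgRNA that a library does not list was given a count of 0.

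In the unsorted pools nearly all safe-targeting sgRNAs were listed, over a broad range of counts. The high-screen control listed 6506 of the 6645, and their counts over all 6645 ran from 0 to 970 reads with a median of 87 and an interquartile range of 42 to 149. The low-screen control listed 6289, with counts from 0 to 6296, a median of 413 and an interquartile range of 209 to 713. Relative to depth the spreads of the pools were alike: the coefficient of variation was 0.842 in the high-screen and 0.839 in the low-screen control, and the Gini index, which is 0 when all sgRNAs have equal counts and approaches 1 when a few hold all reads, was 0.432 in both. In each pool it took 1509 safe-targeting sgRNAs (22.7%) to hold 50% of the safe-targeting reads. The 66 most abundant, the top 1%, held 4.93% of these reads in the high-screen and 4.80% in the low-screen control.

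The most abundant safe-targeting sgRNAs of the pools were largely the same ones. Number 3186 had 970 reads in the high-screen control, 5189 in the low-screen control and 489 in the sort. Number 3917 had 930, 6296 and 808 reads in the same order. These were the first and second of each pool, in opposite order. Number 3771, the third of the high-screen control, had 894 reads there, 2901 in the low-screen control and 437 in the sort. Number 4127, the third of the low-screen control, had 4891 reads there, with 770 in the high-screen control against 678 in the sort. All 4 had a lower share of the matched reads in the sort than in either pool.

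The pools differed at the low end. Only 4 safe-targeting sgRNAs had 10 to 29 reads in the low-screen control, against 793 in the high-screen control, although the low-screen control was sequenced more deeply. Above that gap the low-screen counts fell into evenly spaced groups. The first ran from 31 to 105 reads and held 507 safe-targeting sgRNAs with a median of 73 reads, the second had 589 with a median of 148, and the third had 658 with a median of 224. These medians stand to the first as 2.03 and 3.07. Between the first groups the counts thinned out: in bins of 10 reads, 161 safe-targeting sgRNAs had 71 to 80 reads, 16 had 101 to 110, and 117 had 141 to 150. The high-screen control had no such gaps, with 363 safe-targeting sgRNAs at 71 to 80 reads and 294 at 101 to 110. Gene-targeting sgRNAs of the low-screen control showed the same spacing, with group medians of 73, 144 and 218 reads, so that it belongs to the library and not to the safe-targeting sgRNAs. The spacing was noticed after the counts were seen, and what produced it was not tested. In units of the first group's median, the median safe-targeting sgRNA of the low-screen control stood at 5.66 and the mean at 6.99, so that low counts in this library are coarser than its read number implies.

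The counts of a safe-targeting sgRNA in the 2 unsorted pools were compared on a log2 scale after scaling to the total of matched reads, with 1 read added to each, for the 6567 with at least 10 reads in either pool. Their median log2 ratio of high-screen over low-screen control was -0.16 (interquartile range -1.0 to 0.70, SD 1.90). A ratio above 1 was found for 1230 (18.7%, interval 17.8 to 19.7%), beside 22.2% of all sgRNAs tested in the same way, and a ratio below -1 for 1644 (25.0%, interval 24.0 to 26.1%), beside 23.4% of all. The shares of safe-targeting sgRNAs that changed over 2-fold between pools of different screens were thus a few points from those of all sgRNAs. Among the 5950 with at least 10 reads in both pools the SD of the log2 ratio was 1.22, where independent reads would give 0.204 and low-screen counts taken in steps of 73 reads would give 0.747. Neither value holds PCR or library noise, so what the rest of the spread stands for was not tested. The screens also differ in IFN-γ dose and sort days, which cannot be told apart from the library here.

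The distribution of safe-targeting counts in the sort had another shape than in the pools. The sort listed 3348 of the 6645 safe-targeting sgRNAs and lacked 3297 (49.6%, interval 48.4 to 50.8%), against 139 lacking in the high-screen control (2.09%, interval 1.76 to 2.47%) and 356 in the low-screen control (5.36%, interval 4.83 to 5.93%). Over all sgRNAs 50.4% were not listed in the sort, 2.29% in the high-screen and 6.56% in the low-screen control. The safe-targeting share in the sort thus lay near the background. It was 1.16 points below that of gene-targeting sgRNAs, with an interval of -2.38 to 0.065 points for the difference, which includes 0. The share absent from the sort was therefore about as large among sgRNAs that cut a safe site as among sgRNAs that cut a gene.

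Most of the sgRNAs absent from the sort were listed in both pools rather than in 1. Both pools listed 2933 of the 3297, 247 were listed only in the high-screen control and 117 only in the low-screen control. All 3 libraries listed 3223 safe-targeting sgRNAs (48.5%), and only 6 were listed in the sort and in neither pool. Since an sgRNA was counted only if some library listed it, every sgRNA absent from the sort had to be in at least 1 pool, and the 105 running numbers seen in no library are not among these counts.

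Those listed in the sort were spread over a wide range. Over all 6645 the median count in the sort was 1 read, the upper quartile 101, the 90th percentile 385, the 99th percentile 2031 and the highest count 9348. A single read was the count of 302 safe-targeting sgRNAs, while 67 had 2 reads, 38 had 3 and 19 had 4. From 5 to 49 reads there were 756, from 50 to 499 there were 1661, and 505 had 500 or more. The 505, which are 7.60% of the safe-targeting sgRNAs, included 5 with at least 5000 reads. The coefficient of variation was 2.98 and the Gini index 0.848. The top 1% held 22.3% of the safe-targeting reads and 280 sgRNAs (4.21%) held 50% of them, which is a far more uneven distribution than in either pool. Over all sgRNAs of the sort the coefficient of variation was 5.34 and the Gini index 0.859. Their top 1% held 25.9% of reads and 3.77% of them held 50%, so the unevenness was not particular to safe-targeting sgRNAs.

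Absence from the sort was more frequent among sgRNAs with low counts in the high-screen control. Of the 249 safe-targeting sgRNAs with 1 to 9 reads in the high-screen control 81.5% were not listed in the sort (interval 76.1 to 86.1%), and of the 793 with 10 to 29 reads 68.0% were not (interval 64.6 to 71.2%). The share was 55.9% for the 2526 with 30 to 99 reads (interval 53.9 to 57.8%) and 36.8% for the 2704 with 100 to 299 reads (interval 35.0 to 38.7%). It was 13.2% for the 234 with 300 reads or more (interval 9.18 to 18.3%). The intervals of neighbouring classes do not overlap from 10 reads upwards. If each sgRNA had kept its share of reads and reads were independent, Poisson counting would leave 9.68 of the 249 and 1.14e-05 of the 793 unlisted, where 203 and 539 were. Reads after PCR are not independent molecules, and losses in sampling cells or DNA were not tested.

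The 5 safe-targeting sgRNAs with the most high-screen control reads among those absent from the sort show how far this went. Number 3641 had 457 reads in the high-screen and 474 in the low-screen control. Number 4386 had 443 and 719 reads, and number 5368 had 439 and 2445. Each of these stood above the 99th percentile of safe-targeting counts in the high-screen control, which was 414 reads. Number 5357 had 435 and 804 reads, and number 1898 had 417 and 1098. None of the 5 had a read in the sort.

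Escape to a high count was rare. A high count was set at 10 times the mean of a library, which is 1707 reads in the sort, 1124 in the high-screen and 4905 in the low-screen control. In the sort 89 safe-targeting sgRNAs reached it (1.34%, interval 1.08 to 1.65%), beside 1.71% of all sgRNAs. The high-screen control had 0 of 6645 at such a count (upper limit of the interval 0.0555%) and the low-screen control 2. Over all sgRNAs the shares at such a count were 0.0189% in the high-screen and 0.0194% in the low-screen control. The 89 held 26.8% of the safe-targeting reads of the sort, where sgRNAs at a high count held 34.1% of the reads of all sgRNAs. In the high-screen control these 89 ran from 30 to 639 reads with a median of 156, they held 2.45% of the safe-targeting reads there, and none was at a high count in either pool. Safe-targeting sgRNAs listed below the threshold had a median of 113 reads in the high-screen control and those not listed a median of 63. Per 1000000 matched reads the 89 had a mean of 83.7 in the sort, 8.69 in the high-screen and 8.01 in the low-screen control. Just inside the threshold stood safe_safe_204550.3089 with 1787 reads in the sort and safe_safe_204550.2823 with 1719, and just outside it safe_safe_204550.2784 with 1706 and safe_safe_204550.2520 with 1679.

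A high count in the sort was more frequent among sgRNAs with many reads in the high-screen control. The threshold is the same read count for every sgRNA, so an sgRNA with few control reads needs a larger rise to reach it. That bears on this trend. No safe-targeting sgRNA with under 30 reads in the high-screen control reached a high count. Of those with 30 to 99 reads 25 did (0.990%, interval 0.641 to 1.46%), of those with 100 to 299 reads 46 did (1.70%, interval 1.25 to 2.26%), and of those with 300 or more 18 did (7.69%, interval 4.62 to 11.9%). The class with the smallest share absent from the sort thus had the largest share of high counts.

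The 10 safe-targeting sgRNAs with the most reads in the sort ranged from 4603 to 9348 reads. The first was number 1329, with 9348 reads in the sort, 41 in the high-screen and 0 in the low-screen control, a 150-fold higher share of matched reads in the sort than in the high-screen control. It was the 96th of all sgRNAs in the sort and the only safe-targeting sgRNA among the first 100. Number 3587 had 8896 reads in the sort, 151 in the high-screen and 929 in the low-screen control, a 38.8-fold higher share than in the high-screen control. Number 1823 had 6883, 205 and 1493 reads in the same order, a 22.1-fold higher share. These 3 stood at different levels in the pools, one of them absent from a pool and the other two above the median of both. Number 196 had 5254, 361 and 1420 reads, and number 2274 had 5049, 164 and 1097.

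The other 5 had sort counts within 5% of each other. Number 4564 had 4825 reads in the sort, 340 in the high-screen and 1171 in the low-screen control. Number 2220 had 4802, 190 and 676 reads, and number 178 had 4637, 69 and 769. Number 411 had 4608, 148 and 856 reads, and number 5469 had 4603, 67 and 139. The fold over the high-screen control among the 10 ran from 9.34 for number 4564 to 150 for number 1329, so like counts in the sort stood beside high-screen control counts that differed several-fold. Down the ranking of all sgRNAs in the sort, 20 of the first 1000 were safe-targeting (2.0%) and 265 of the first 10003, the number set by ties (2.65%), against 3.31% of all sgRNAs.

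The log2 ratio of sort over high-screen control was taken for the 6257 safe-targeting sgRNAs with at least 10 reads in that control, with the same scaling and 1 added read. Its median was -4.25 (interval -4.39 to -4.09) and its interquartile range -6.19 to -0.55. A ratio below -1 was found for 4474 (71.5%, interval 70.4 to 72.6%), beside 70.6% of all sgRNAs, and a ratio above 1 for 734 (11.7%, interval 10.9 to 12.6%), beside 12.6% of all. The remaining 1049 (16.8%) lay between. Both shares were near those of all sgRNAs, and most safe-targeting sgRNAs had a lower share of reads in the sort than in the high-screen control while a minority had a higher one. A ratio above 3 was reached by 159 (2.54%), beside 2.60% of all sgRNAs, and a ratio above 5 by 15 (0.240%), beside 0.246% of all. The low median rests on the absent sgRNAs, since the ratio of an sgRNA with 0 reads is set by its control count and by the added read.

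Against the low-screen control the picture was the same in outline. Of the 6260 safe-targeting sgRNAs with at least 10 reads there, 761 had a ratio above 1 (12.2%, interval 11.4 to 13.0%), beside 13.3% of all sgRNAs. A ratio below -1 was found for 4565 (72.9%, interval 71.8 to 74.0%), beside 71.2% of all. The sort is shared by both comparisons.

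The 5 highest ratios over the high-screen control were those of numbers 1329, 5469, 6039, 1427 and 178. Number 1329 had a log2 ratio of 7.20, while the other 4 lay between 5.45 and 5.48. Number 6039 had 810 reads in the sort, 11 in the high-screen and 65 in the low-screen control, so that its ratio rests on 11 reads. Number 1427 had 2094 reads in the sort, 30 in the high-screen and 1036 in the low-screen control, and its share in the sort was 46.0-fold that in the high-screen control but 5.81-fold that in the low-screen control. The height of a single safe-targeting ratio thus depended on which pool it was taken against.

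Genes with a role in MHC-I repression give a scale for these values, and were picked with their results known. EZH2, the methyltransferase of polycomb repressive complex 2, had a median log2 ratio of 5.27 over 9 sgRNAs, and 8 of the 6257 safe-targeting sgRNAs (0.128%, interval 0.0552 to 0.252%) exceeded it. For MEN1, which encodes Menin, the median over 8 sgRNAs was 5.33, exceeded by 7 safe-targeting sgRNAs. SOCS1, an inhibitor of interferon signalling, had a median of 3.43 over 10 sgRNAs, exceeded by 102 (1.63%, interval 1.33 to 1.98%). For MTF2, a polycomb-like subunit of the same repressive complex, the median over 10 sgRNAs was 0.54, exceeded by 978 (15.6%). The highest sgRNA of EZH2 (8.06), of MEN1 (7.63) and of MTF2 (9.92) stood above every safe-targeting sgRNA, and that of SOCS1 (5.32) was exceeded by 7. Some safe-targeting sgRNAs thus reached ratios as high as a typical sgRNA of these genes. The sgRNAs of these genes also varied, with lowest ratios of -6.19 for EZH2, -2.44 for MEN1, -4.59 for SOCS1 and -5.73 for MTF2.

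Non-targeting sgRNAs, which do not cut, differed from safe-targeting sgRNAs in the sort, but they also had higher counts in the pools. Of the 4639 non-targeting sgRNAs 36.3% were not listed in the sort (interval 34.9 to 37.7%), 13.4 points fewer than of the safe-targeting sgRNAs (interval of the difference 11.5 to 15.2 points). Their median was 154 reads in the high-screen control, against 87 for safe-targeting sgRNAs. When the non-targeting shares were weighted to the safe-targeting sgRNAs by 6 classes of high-screen control count, the difference came to 3.14 points. The classes are wide, so control counts can still differ inside a class, and the weighting evens them out only in part. Within the classes of control count the sign was not fixed. Unlisted were 55.3% of non-targeting and 55.9% of safe-targeting sgRNAs at 30 to 99 reads, 32.0% and 36.8% at 100 to 299, and 10.6% and 13.2% at 300 or more. The intervals overlap in these classes except at 100 to 299 reads, where they were 30.1 to 34.0% and 35.0 to 38.7%. At 1 to 9 reads the shares were 85.7% and 81.5%, and at 10 to 29 reads 69.0% and 68.0%. Among sgRNAs that the high-screen control did not list the classes stood far apart, with 28.8% of 153 non-targeting (interval 21.7 to 36.6%) and 84.2% of 139 safe-targeting sgRNAs (interval 77.0 to 89.8%) also unlisted in the sort, but these non-targeting sgRNAs had a median of 1 read there. Over sgRNAs with at least 10 high-screen control reads the weighted difference was 2.27 points. Whether cutting itself has a part in the remaining difference was not tested.

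High counts were more frequent without a cut site. Of the non-targeting sgRNAs 199 reached a high count in the sort (4.29%, interval 3.72 to 4.91%), which made the safe-targeting share 2.95 points lower (interval of the difference -3.62 to -2.32 points). Weighted by the same wide classes of control count the non-targeting share was 2.48%. The difference was then 1.14 points, still with the safe-targeting share the lower. At 100 to 299 high-screen control reads 3.91% of non-targeting sgRNAs (interval 3.13 to 4.81%) and 1.70% of safe-targeting sgRNAs (interval 1.25 to 2.26%) had a high count, and these intervals do not overlap. At 300 or more the shares were 10.8% (interval 8.88 to 13.0%) and 7.69% (interval 4.62 to 11.9%), which do overlap. Ratios above 1 were found for 15.8% of non-targeting sgRNAs and ratios below -1 for 60.4%, so that safe-targeting minus non-targeting came to -4.06 points above 1 (interval -5.42 to -2.72) and to 11.1 points below -1 (interval 9.27 to 12.9). These differences in ratios were not weighted by control count, in which the classes differ.

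The mean count of a safe-targeting sgRNA, as a fraction of that of a non-targeting sgRNA in the same library, was 0.670 in the low-screen control, 0.562 in the high-screen control and, for the sort, 0.413. Without the sgRNAs at a high count these fractions were 0.685, 0.577 and 0.531. Non-targeting sgRNAs were themselves of unequal abundance. Those with running numbers up to 3000 had a median of 104.5 high-screen control reads and 44.6% of them were not listed in the sort, against a median of 181 reads and 32.9% for the higher numbers. Of safe-targeting sgRNAs with running numbers up to 3000, 47.8% were not listed in the sort. The intervals of these lower-number shares overlap, at 41.9 to 47.3% for non-targeting and 46.0 to 49.6% for safe-targeting sgRNAs. Against the first set alone, a split chosen after the counts were seen, and with safe-targeting sgRNAs of the same running numbers, the fractions were 1.08 in the low-screen control, 0.901 in the high-screen control and, for the sort, 0.707, and without high counts 1.08, 0.908 and 0.902. The order of the libraries was the same for either set of non-targeting sgRNAs, but the last step, from the high-screen control to the sort, shrank from 0.901 and 0.707 to 0.908 and 0.902 once high counts were left out. What sets the 3 libraries apart (time in culture, IFN-γ dose, sort, library) cannot be told apart.

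Olfactory receptor genes, which are not known to be used by K562 cells, offer a second set of sgRNAs that cut where no needed function is lost. Their 3676 sgRNAs were listed less often than safe-targeting sgRNAs in the sort, with 56.9% unlisted (difference 7.27 points, interval for safe-targeting minus olfactory receptor -9.26 to -5.26). They had lower counts in the pools, with a median of 66 reads in the high-screen control, and weighting to the safe-targeting counts left 53.5% against 49.6%. High counts were about equally frequent, at 1.36% and 1.34%, with an interval of -0.517 to 0.427 points for the difference. Ratios above 1 were found for 11.9% and 11.7% (interval of the difference -1.53 to 1.24 points). Ratios below -1 were found for 73.8% of olfactory receptor and 71.5% of safe-targeting sgRNAs, with an interval of -4.18 to -0.383 points for the difference.

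Genes that cells need lay lower again. Of 720 sgRNAs against ribosomal protein genes 70.0% were not listed in the sort (interval 66.5 to 73.3%), as were 68.9% of 357 against proteasome genes (interval 63.8 to 73.7%). These shares were not weighted by control count. The high-screen control medians of 47 and 46 reads were below the 87 of safe-targeting sgRNAs. In the low-screen control 17.5% and 17.9% were not listed, against 5.36%. In the high-screen control 7.22% and 3.08% were not listed, against 2.09%. There the proteasome interval (1.55 to 5.45%) overlaps that of safe-targeting sgRNAs (1.76 to 2.47%). The safe-targeting sgRNAs therefore stood between the non-targeting sgRNAs and the sgRNAs against needed genes in the share absent from the sort, and in the same order in their median count in the high-screen control.

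Within the safe-targeting sgRNAs the last running numbers stood apart. Cut into 9 blocks of 750 numbers, a division chosen after the counts were seen, the block from 6001 to 6750 had a median of 52 reads in the high-screen and 233 in the low-screen control, where the other blocks had medians of 77 to 101 and 381 to 504. It held 37 of the 105 numbers seen in no library, and the others 3 to 15 each. In the sort 61.4% of its 713 sgRNAs were not listed (interval 57.7 to 65.0%), beside 42.6 to 54.0% in the other blocks. By control count the difference had no fixed direction. At 100 to 299 high-screen control reads 44.9% of this block (interval 37.6 to 52.3%) and 36.2% of the others (interval 34.4 to 38.2%) were unlisted. At 30 to 99 reads the shares were 63.1% (interval 57.1 to 68.9%) and 55.0% (interval 52.9 to 57.0%). In the lower classes, which held 249 of the 713, the last block was no higher: its share was 67.4% against 68.1% at 10 to 29 reads, 79.0% against 82.4% at 1 to 9 and 81.4% against 85.4% at 0, each with overlapping intervals. Of 300 reads or more the block had only 5 sgRNAs. High counts were found in every block, from 4 to 17 sgRNAs, and the last block held 7 of the 89. Without it the unlisted share in the sort was 48.2%.

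Safe-targeting counts were related between the libraries, as a description across sgRNAs, which are not independent replicates. Spearman's rho over the 6645 was 0.522 between the pools, 0.363 between the sort and the high-screen control and 0.279 between the sort and the low-screen control. The correlation of the sort with either pool was thus lower than that between the pools, with 49.6% of its values at 0.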

How the data were processed

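K562 sgRNA counts were read from 3 libraries of genomic DNA, 1 for each group. The deposited values are raw read counts for each sgRNA, and the authors did not normalize them. They trimmed the fixed flanks from each read, aligned reads to the sgRNA sequences, dropped reads that aligned to several sgRNAs and counted what remained. Tools in the submitters' processing notes were bcl2fastq, cutadapt and Bowtie2, with versions not given in the sources used here. No genome build entered the counts. Reads without a matching sgRNA did not enter any total: they were 21.9% of the sort, 20.6% of the high-screen and 12.1% of the low-screen control.

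An sgRNA not listed in a library was given a count of 0. Counts were scaled to matched reads, and log2 ratios used a pseudocount of 1 read and at least 10 reads in the control. The sgRNAs named were the 10 with the most sorted reads, the 5 with the highest ratio over the high-screen control, the 5 with the most high-screen control reads among those not listed in the sort, and the 3 with the most reads in each control. Genes were added for scale. The members, classes and lists were chosen with earlier results of these data known. Alternatives changed the pseudocount, the read minimum, the scaling, the control and the depth. The calculation of ratios, intervals and count spacing was tested on simulated data. Control sgRNA sequences were matched to GRCh37 with GENCODE annotation. The software was scipy 1.17.1, pandas 2.3.3 and numpy 2.4.6 under Python 3.11.15.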

Additional observations from a re-analysis of the deposited data

How the results depend on the processing

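The median log2 ratio of the sort and the difference to non-targeting sgRNAs kept their sign under every alternative. The other results are shares or an index, which cannot change sign. Of 40 values under other settings 22 moved beyond the 95% interval of the reported value (beyond 10% of it where no interval was given), and of 90 values with a block of running numbers left out 1 did. Scaling to non-targeting reads gave 10.1% of safe-targeting sgRNAs above 1 and 73.6% below -1 in the sort against the high-screen control, and 16.9% above 1 and 28.1% below -1 between the pools. A minimum of 50 reads gave 69.4% below -1 in the sort and 16.5% above 1 between the pools. The low-screen control in place of the high-screen control gave 72.9% below -1. A pseudocount of 5 gave 17.8% above 1 and 23.7% below -1 between the pools. The median log2 ratio of the sort was -2.68 with a pseudocount of 5, -4.00 with a minimum of 1 read, -3.80 with a minimum of 50 reads and -6.14 against the low-screen control. The added read sets the ratio of every unlisted sgRNA, which bears on this median. The share not listed in the sort was 47.6% over sgRNAs with at least 10 high-screen control reads, 51.3% with the sort thinned to the depth of the high-screen control, 56.0% with counts under 5 added, and 48.2% without running numbers 6001 to 6750. A high count was reached by 3.93% at 5 times the mean and by 0.271% at 20 times. Over listed sgRNAs only, the top 1% held 14.3% of safe-targeting reads and the Gini index was 0.699. The difference to non-targeting sgRNAs in the share not listed was 3.14 points when weighted by classes of high-screen control count. It was 5.06 points for all safe-targeting sgRNAs against non-targeting running numbers up to 3000. The difference thus depends on the control count and on which non-targeting sgRNAs are used. The leaving out of sub-libraries was not run, since the names of safe-targeting sgRNAs carry no sub-library code, and blocks of 750 running numbers took its place. With 1 library in each group no replicate could be left out, and the sort cannot be told apart from the library made of it at any depth.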
